A study of Mus musculus with 5 samples.

Results

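The Bcl2 family and its partners described here are 10 genes chosen by name, Mcl1, Bcl2, Bcl2l1, Bcl2l11, Bax, Bak1, Bbc3, Pmaip1, Bid and Bad, of 41028 gene names in the 5 main count matrices. No threshold on a measured value was applied, and 10 of 10 had unique molecular identifiers (UMIs, 1 per captured transcript) in every library. The study set droplet capture (10x Genomics, 3' v2 chemistry) against microwell capture (BD Rhapsody whole transcriptome analysis, here BD) on digested mammary tumours of PyMT mice, a model in which the polyoma virus middle T antigen drives mammary tumours. The groups used were fresh 10x (2 libraries), stored 10x (1 library, titled 24 h, from a digest kept overnight at 4 °C after which viability was checked to have dropped by at least 20%), BD 1 (titled fresh) and BD 2 (1 library each). BD 2 has a title that says fresh and files named for 24 h, so no storage state is assumed for it. All libraries were made after an enrichment for viable cells. The sources used here give no promoter of the transgene, strain, age or number of mice, and do not say that any libraries came from separate animals. The p-values below therefore measure spread over these libraries, which may be technical. In stored 10x or BD 1 against fresh 10x it is the spread of the fresh pair. Where library is a block, it is the spread of differences within libraries.

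Apoptosis through mitochondria is set by a balance within the BCL2 family. The survival proteins MCL1, BCL2 and BCL-XL (the product of Bcl2l1) hold in check BAX and BAK (the product of Bak1), the effectors that open the outer mitochondrial membrane and release cytochrome c. The BH3-only proteins BIM (Bcl2l11), PUMA (Bbc3), NOXA (Pmaip1), BID and BAD relay death signals by binding the survival proteins, and some of them also engage the effectors. Mammary epithelium depends on this balance when it is remodelled after lactation. These are background statements, and transcript counts do not measure protein, which for MCL1 and NOXA is short-lived.

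The loci are given on mouse build GRCm38 with GENCODE M21 gene models. Mcl1 spans chr3:95658788-95663176 (plus strand), Bcl2 spans chr1:106538178-106714274 (minus strand) and Bcl2l1 spans chr2:152780668-152831728 (minus strand). Among the effectors, Bax lies at chr7:45461697-45466898 (minus strand) and Bak1 at chr17:27019810-27029009 (minus strand). Among the BH3-only genes, Bcl2l11 lies at chr2:128126038-128162547 (plus strand), Bbc3 at chr7:16308393-16318205 (plus strand), Bid at chr6:120891930-120916853 (minus strand) and Bad at chr19:6941861-6951899 (plus strand). Bak1 is overlapped along all of its 9200 bases by Ggnbp1 on the opposite strand, Bid shares 913 bases with Bcl2l13, Bad shares 620 bases with Gpr137, Bcl2 shares 33103 bases with the antisense gene D630008O14Rik, and Bax shares 915 bases with Gm45808 on the same strand. The sources used here do not state whether counting used strand, so UMIs of these pairs cannot be told apart.

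The 250 bases before the start of Mcl1, Bcl2 and Bid are shown as examples that differ in the motif counted below, for 3 genes described by class and by epithelial cluster. They are RefSeq sequences of GRCm38.p6, read 5′ to 3′ on the strand of the gene, with the GC box (GGGCGG, searched on both strands, so also as CCGCCC) in capitals.
Mcl1, chr3:95658471-95658720, plus strand: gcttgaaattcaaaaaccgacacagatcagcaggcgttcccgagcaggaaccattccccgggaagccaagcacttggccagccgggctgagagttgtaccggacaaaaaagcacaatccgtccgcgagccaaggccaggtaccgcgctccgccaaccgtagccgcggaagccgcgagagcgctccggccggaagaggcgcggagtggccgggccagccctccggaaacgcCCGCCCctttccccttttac
Bcl2, chr1:106714291-106714540, minus strand: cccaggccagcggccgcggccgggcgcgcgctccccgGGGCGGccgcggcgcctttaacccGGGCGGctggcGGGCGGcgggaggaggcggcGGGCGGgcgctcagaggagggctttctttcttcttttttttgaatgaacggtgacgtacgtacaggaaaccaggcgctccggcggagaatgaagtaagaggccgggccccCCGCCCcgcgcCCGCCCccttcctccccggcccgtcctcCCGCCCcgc
Bid, chr6:120916825-120917074, minus strand: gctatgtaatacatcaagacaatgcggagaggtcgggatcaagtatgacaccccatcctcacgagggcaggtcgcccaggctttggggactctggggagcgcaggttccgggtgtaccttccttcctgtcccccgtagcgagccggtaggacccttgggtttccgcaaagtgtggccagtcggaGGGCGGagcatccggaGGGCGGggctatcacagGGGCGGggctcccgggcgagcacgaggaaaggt
The Mcl1 window holds 1 match, that of Bid 3 and that of Bcl2 7. Of 32851 such windows from 27025 mouse genes, 32.7% held at least 1 match, 8.47% at least 3 and 0.411% at least 7. The 9 members with a window had 15 windows, of which 10 held at least 1 match, and some windows of Bbc3 overlap. Counted by gene, 7 of the 9 had a match in at least 1 window, and no share by gene over all genes was taken. The windows of Bcl2l1 and Bak1 held no match. A match describes the sequence and is no measured binding site.

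The libraries kept 1864 to 4078 cells with at least 200 genes and held between 29166129 and 59957945 UMIs in all, with a median of 8926 to 12474 UMIs per cell. Both fresh 10x libraries included cells with as few as 102 or 103 UMIs, whereas the smallest cells of stored 10x, BD 1 and BD 2 had 1029, 2577 and 1776 UMIs. The median share of UMIs from mitochondrial genes was 6.14% and 6.99% for the fresh 10x pair and 7.17% after storage, beside 15.2% (BD 1) and 19.8% (BD 2). Between 1 and 5 cell barcodes were shared by pairs of 10x libraries and 24 by the BD pair. The tissue label was checked against luminal epithelial markers (Krt8, Krt18, Epcam and others), which summed to between 16572 and 18918 CPM in the libraries. Levels below are CPM (UMIs of a gene scaled to a total of 1000000 UMIs over the same cells), given in the order fresh 10x 1, fresh 10x 2, stored 10x, BD 1, BD 2. They are used to compare samples and classes for the same gene, never 1 gene with another.

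Cells were grouped by clustering that left out the 10 members and all other apoptosis genes tested here, and 7 classes with at least 20 cells in 3 or more libraries were named from markers: epithelial-like (luminal), basal-like, fibroblast-like, endothelial-like, mural-like, macrophage-like and T-like cells. The epithelial-like class was the largest, with 1277, 1300, 2712, 2574 and 2923 cells. Sums per library and class were compared with the epithelial-like sum of the same library by edgeR's quasi-likelihood test with library as a block and Benjamini-Hochberg adjustment over 11681 genes. Changes are log2 fold changes ± standard error. A call means an adjusted p under 0.05, and 34 of 60 pairs of member and class were called. The share of all tested genes called was 32.3% in basal-like, 72.5% in fibroblast-like, 60.2% in endothelial-like, 42.8% in mural-like, 64.2% in macrophage-like and 56.2% in T-like cells. Against these shares the members gave 3, 8, 5, 5, 8 and 5 calls of 10 in the same order, so the count of members called lies near the background in most classes and is no result about the family. The median change over the 10 members was 0.13, -1.01, -0.30, -0.68, 0.55 and -0.02, beside medians over all tested genes of -0.08, -0.11, -0.16, -0.30, -0.12 and -0.15.

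**Figure D1:**
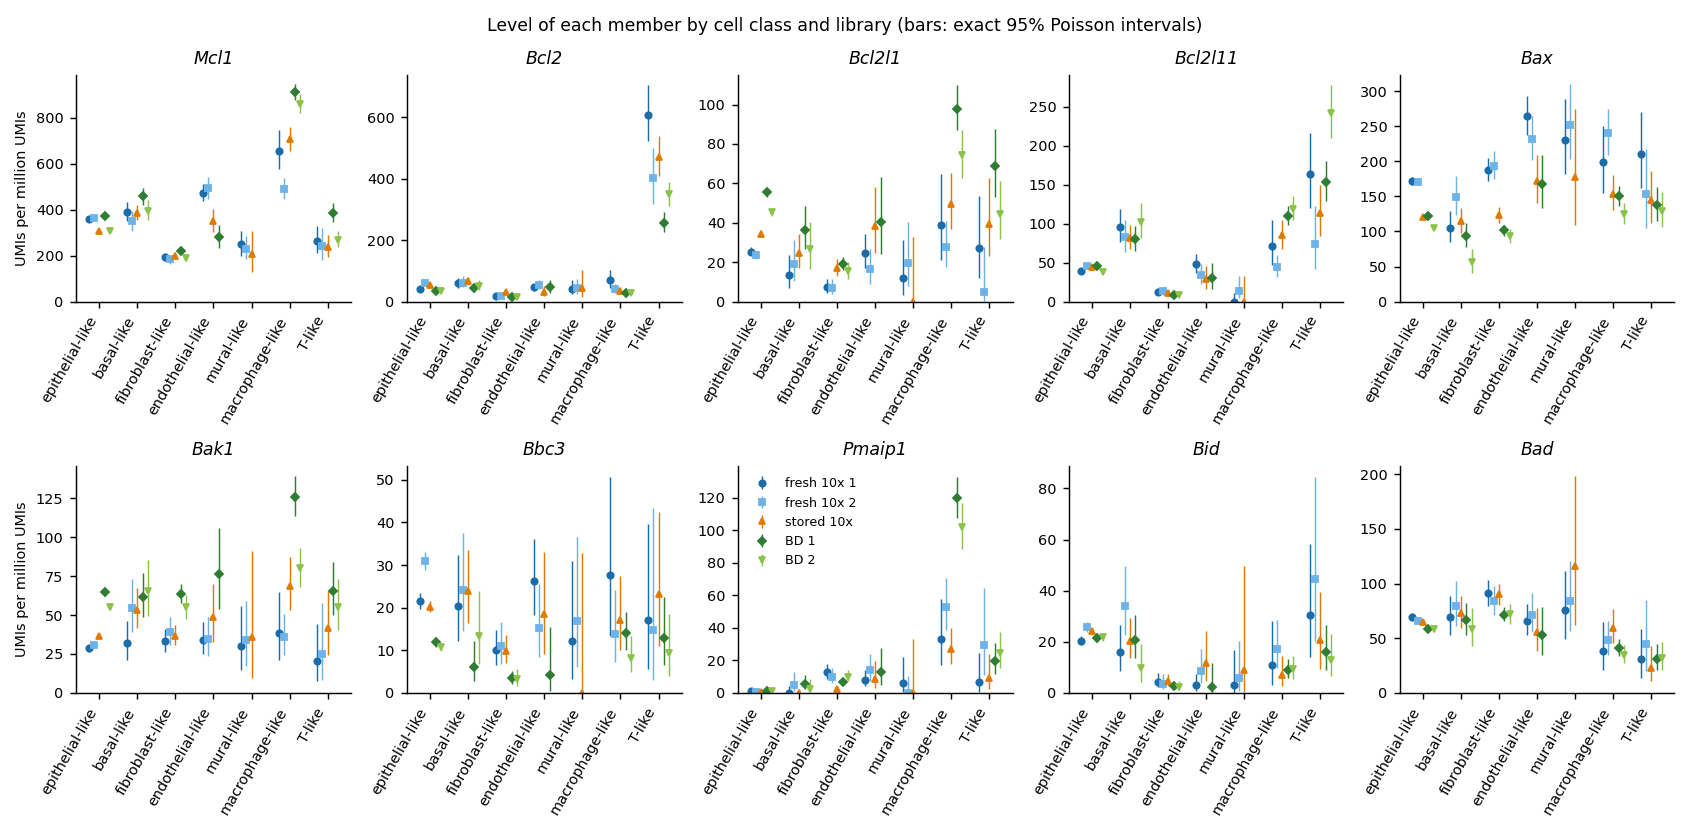
Level of each member (UMIs scaled to a total of 1000000, linear axes that differ between genes) in the named cell classes, 1 point per library with its exact Poisson 95% interval, for sets of at least 20 cells. Bcl2 is highest in T-like cells, where the 5 libraries lie between 257 and 609, and Pmaip1 in macrophage-like cells, where they lie between 27.3 and 120.

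Among the survival genes, Mcl1 had its highest median in macrophage-like cells and its lowest in fibroblast-like cells, of the classes with enough cells for a test. In macrophage-like cells it measured 657, 490, 707, 913 and 861 CPM, and in epithelial-like cells 359, 363, 309, 373 and 307. Every macrophage-like value lay above every epithelial-like value, and Mcl1 rose by 1.15 ± 0.14 (2.22-fold, edgeR adjusted p = 1.7e-08). Fibroblast-like cells had 192, 183, 199, 222 and 192, below every epithelial-like value, a change of -0.82 ± 0.14 (edgeR adjusted p = 4.3e-06). Mural-like cells, present in sufficient number only in the 10x libraries, had 249, 230 and 205, a change of -0.82 ± 0.19 (edgeR adjusted p = 0.00061). Basal-like cells (349 to 457) and endothelial-like cells (281 to 493) overlapped the epithelial-like range and were not called. T-like cells had 265, 243, 238, 386 and 270, and their change of -0.35 ± 0.14 (edgeR adjusted p = 0.040) was not called by DESeq2 (adjusted p = 0.0989), without fresh 10x 1 (0.0864), without stored 10x (0.134) or without the block (0.108). With finer clusters the T-like value was 0.01. In the order of medians, macrophage-like cells came first, with a lowest value (490) just inside the endothelial-like range, the ranges of endothelial-like, basal-like and epithelial-like cells overlapped, and the ranges of mural-like and fibroblast-like cells overlapped at the low end.

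Bcl2, the founding survival gene of the family, was several-fold higher in T-like cells than in any other class with enough cells. It measured 609, 401, 471, 257 and 349 CPM there, beside 40.4, 61.7, 55.1, 35.1 and 35.2 in epithelial-like cells. These groups did not overlap, and the change was 3.12 ± 0.16 (8.71-fold, edgeR adjusted p = 1.1e-16). T-like cells were 4.52%, 2.15%, 3.01%, 2.98% and 3.56% of the cells and held 13.6%, 4.47%, 6.71%, 11.2% and 15.3% of the Bcl2 UMIs. The cluster is led by Igkc, Igha and Cd7 and carries markers of natural killer cells beside those of T cells. At the finer clustering it divided into a T-like group, where Bcl2 was higher by 2.10, and an unnamed group led by Gzmb, Xcl1 and Cd7. The unnamed group scored highest for natural killer markers and entered no class test, so the 8.71-fold value belongs to the mixed class. Without cells rich in immunoglobulin or epithelial transcripts the Bcl2 change was 3.26. In fibroblast-like cells Bcl2 was 16.6, 18.2, 31.6, 16.3 and 15.1, each below the lowest epithelial-like value, a change of -1.20 ± 0.17 (edgeR adjusted p = 1.5e-07). Bcl2 was not called in the remaining 4 classes, with macrophage-like values of 69.0, 40.2, 34.3, 27.1 and 27.8.

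Bcl2l1, which encodes BCL-XL, was lower in fibroblast-like cells of each library. It measured 7.33, 6.75, 16.8, 19.0 and 15.4 CPM there against 25.4, 23.7, 34.5, 55.4 and 45.4 in epithelial-like cells, a change of -1.51 ± 0.15 (edgeR adjusted p = 1.7e-10). In macrophage-like cells it was 38.6, 27.6, 49.5, 97.9 and 74.1, above the epithelial-like level of the same library in 5 of 5 libraries, with a change of 0.70 ± 0.14 (edgeR adjusted p = 9.3e-05). Without the block this call was lost (edgeR adjusted p = 0.089). Basal-like cells had 13.6, 19.0, 24.6, 36.3 and 26.7, a change of -0.67 ± 0.17 (edgeR adjusted p = 0.0028), which was likewise lost without the block (0.35). The mural-like call, -1.19 ± 0.40 (edgeR adjusted p = 0.015), rested on 4, 7 and 0 UMIs and was lost with DESeq2 and without fresh 10x 1 or stored 10x.

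Of the effectors, Bax was called in 3 classes and Bak1 in 1, where 32.3% to 72.5% of all tested genes were called in a class. Bax was lower in basal-like cells, at 106, 149, 115, 93.5 and 55.9 against 172, 171, 121, 123 and 105 in epithelial-like cells, lower in 5 of 5 libraries with a change of -0.46 ± 0.11 (edgeR adjusted p = 0.0018, and 0.243 without the block). Macrophage-like cells had 199, 240, 154, 150 and 125 CPM of Bax, a change of 0.40 ± 0.11 (edgeR adjusted p = 0.0016) that was lost without the count filter, without fresh 10x 2 and without the block. The endothelial-like change of Bax, 0.28 ± 0.12 (edgeR adjusted p = 0.040), was lost in 6 of 12 alternatives. In the main fit Bak1 was called in macrophage-like cells only, among the 6 classes tested. It measured 38.6, 35.6, 68.7, 126 and 80.0 there against 28.7, 31.1, 36.4, 64.9 and 55.4, higher in 5 of 5 libraries by 0.77 ± 0.12 (edgeR adjusted p = 2.9e-06). Alternatives added calls of Bak1 in basal-like cells, with DESeq2 (0.36, adjusted p = 0.024) and without BD 1 (0.39, edgeR adjusted p = 0.043). Finer clusters added a call in fibroblast-like cells (0.28, edgeR adjusted p = 0.027). In fibroblast-like cells neither effector was called in the main fit, with changes of -0.04 ± 0.10 for Bax and 0.07 ± 0.12 for Bak1. In 10x libraries the fibroblast-like sum pools clusters that differed in Bax, as given below.

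Each of the 5 BH3-only genes was called in at least 3 classes, a number that Bax also reached. Between 32.3% and 72.5% of all tested genes were called in a class, so these numbers are no result about the BH3-only genes. Bcl2l11, the gene of BIM, was higher in basal-like cells, at 95.4, 82.2, 81.7, 79.6 and 102 CPM against 39.2, 46.2, 44.1, 45.4 and 38.2. The ranges did not overlap, and the change was 0.99 ± 0.19 (edgeR adjusted p = 0.00015). In macrophage-like cells Bcl2l11 measured 71.7, 43.7, 84.8, 110 and 119, a change of 1.11 ± 0.19 (edgeR adjusted p = 7.2e-06) in which fresh 10x 2 lay within the epithelial-like range. T-like cells had 163, 74.3, 113, 153 and 242, a change of 1.77 ± 0.20 (edgeR adjusted p = 8.1e-09). With finer clusters the T-like change of Bcl2l11 was 0.16 (edgeR adjusted p = 0.72), and the immunoglobulin-positive and Gzmb-positive cells then stood in separate groups. Fibroblast-like cells had 12.7, 13, 10.9, 8.90 and 8.91, each below every epithelial-like value, a change of -2.06 ± 0.21 (edgeR adjusted p = 4.9e-10). In mural-like cells Bcl2l11 had 5 UMIs in all, and the fitted change of -3.01 (edgeR adjusted p = 0.00023) depends on the prior count.

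Pmaip1, which encodes NOXA, was nearly absent from epithelial-like cells and highest in macrophage-like cells. Epithelial-like cells held 19, 18, 26, 53 and 41 UMIs, or 0.827, 0.731, 0.579, 1.16 and 1.02 CPM. Macrophage-like cells held 12, 46, 27, 359 and 209 UMIs, or 33.1, 52.9, 27.3, 120 and 102 CPM. The ranges were far apart, and the change was 6.35 ± 0.26 (81.3-fold, edgeR adjusted p = 1.8e-19). Macrophage-like cells made up 2.49%, 5.76%, 4.53%, 6.21% and 5.54% of the cells and held 15%, 43.0%, 37.5%, 71.8% and 67.0% of the Pmaip1 UMIs of all cells kept. Among cells with at least 2000 UMIs, the share expected to show Pmaip1 in a draw of 2000 UMIs was calculated. It was 5.57% to 20.7% for macrophage-like cells and 0.112% to 0.186% for epithelial-like cells. At full depth, over all cells of the class, Pmaip1 was seen in 12.8% to 52.0% and 0.959% to 1.90%. The median depths were 4513 to 11460 and 10821 to 13865 UMIs. Pmaip1 was also higher in T-like cells (4.17 ± 0.43, 18-fold, edgeR adjusted p = 1.5e-09), endothelial-like cells (3.49 ± 0.49, edgeR adjusted p = 3.2e-07) and fibroblast-like cells (3.09 ± 0.30, edgeR adjusted p = 9.2e-11). The T-like value rests on 2, 6, 4, 18 and 21 UMIs.

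Bid, whose product links death receptors to mitochondria once caspase 8 cuts it, was lower in 4 of the 6 classes than in epithelial-like cells and higher in none of the 6. Epithelial-like cells had 20.3, 25.8, 24.1, 21.3 and 21.8 CPM. Fibroblast-like cells had 4.24, 3.64, 4.66, 2.82 and 2.43, from 7 to 19 UMIs per library, a change of -2.69 ± 0.19 (edgeR adjusted p = 6.9e-14). The endothelial-like change was -2.25 ± 0.29 (edgeR adjusted p = 5.2e-08), from 1 to 8 UMIs per library. Macrophage-like cells had 11.0, 17.2, 7.07, 9.02 and 9.27, below epithelial-like cells in 5 of 5 libraries, by -1.05 ± 0.20 (edgeR adjusted p = 3.1e-05). The mural-like change of -2.67 (edgeR adjusted p = 9.8e-05) rests on 4 UMIs. Unthinned, Bid was seen in 19.7% to 29.4% of epithelial-like cells and 3.93% to 5.41% of fibroblast-like cells, although the latter were the deeper class.

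Bbc3 and Bad showed smaller differences. Bbc3, the PUMA gene and a p53 target, measured 10.0, 10.9, 9.83, 3.41 and 3.24 in fibroblast-like cells against 21.5, 30.9, 20.2, 11.8 and 10.7 in epithelial-like cells, lower in 5 of 5 libraries by -1.43 ± 0.18 (edgeR adjusted p = 3.8e-08). Its mural-like call (-1.32 ± 0.44, edgeR adjusted p = 0.015) was lost in 5 of 12 alternatives and its endothelial-like call (-0.56 ± 0.24, edgeR adjusted p = 0.042) in 9. Bad, a BH3-only gene tied to growth factor and glucose signalling, had T-like levels of 30.6, 44.6, 23.1, 31.1 and 31.7. These rest on 9, 9, 10, 29 and 27 UMIs. Epithelial-like levels of Bad were 69.2, 66.0, 64.9, 58.5 and 58.1. The values did not overlap, counting error aside, and the change was -1.03 ± 0.14 (edgeR adjusted p = 1.8e-07). In macrophage-like cells Bad was 38.6, 48.3, 59.6, 41.1 and 34.6, a change of -0.43 ± 0.11 (edgeR adjusted p = 0.00092). The fibroblast-like rise of 0.34 ± 0.09 (edgeR adjusted p = 0.0015) was lost without the count filter (0.12) and without the block (0.0639), and the endothelial-like fall of -0.29 ± 0.12 (edgeR adjusted p = 0.038) in 10 of 12 alternatives.

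Transcripts of epithelial cells were present in the other classes. The 8 luminal markers summed to 20496 to 22329 CPM in epithelial-like cells, 1589 to 2985 in macrophage-like, 513 to 6271 in T-like, 319 to 2208 in fibroblast-like, 274 to 2635 in endothelial-like, 486 to 919 in mural-like and 8121 to 13383 in basal-like cells. Their part in each value was not tested beyond leaving out the cells richest in these markers. Without those cells the Pmaip1 change in macrophage-like cells was 6.46 and the Bid change in fibroblast-like cells -2.78. Genes induced by tissue digestion (10 immediate early and heat shock genes) also differed between classes: in T-like cells 6 were lower and none higher, Atf3 by -2.55 and Fos by -2.12, in fibroblast-like cells 1 was higher and 5 lower, and in macrophage-like cells 3 were higher, Dusp1 (1.90), Hspa1a (1.75) and Hspa1b (0.86). Their part in the Mcl1 differences was not tested.

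Of 65 other genes of the apoptosis lists, 61 were tested between classes. Macrophage-like cells had 39 called (18 higher, 21 lower), T-like cells 39 (17 and 22), fibroblast-like cells 42 (18 and 24), and endothelial-like cells 39 (15 and 24). The mural-like class had 23 (5 and 18) and the basal-like class 21 (12 and 9). These counts lie near the shares of all genes called in the same classes (64.2%, 56.2%, 72.5%, 60.2%, 42.8% and 32.3% in this order), so they are no result about these lists. Among the further survival genes, the Bcl2a1 copies, which are nearly identical in sequence so that counting may divide their reads, were higher in macrophage-like cells by 9.15 (Bcl2a1b), 7.97 (Bcl2a1d) and 6.77 (Bcl2a1a), while Bcl2l2, the gene of BCL-W, was lower by -1.14. T-like cells had higher Bcl2a1b (6.09), Fasl (9.65), the ligand of the death receptor Fas, Tnfsf10 (4.23), the gene of TRAIL, and Casp8 (1.77). Bok, an effector relative of Bax, was higher in endothelial-like (4.97), mural-like (4.71), fibroblast-like (2.37) and basal-like cells (2.21). Bik, a BH3-only gene, was lower in fibroblast-like (-3.61) and basal-like cells (-1.46). Apaf1, the scaffold of the apoptosome, was higher in endothelial-like (2.64) and fibroblast-like cells (1.86), and Tnfrsf1a, a TNF receptor, by 1.90 and 1.56. Among p53 targets, Phlda3 (2.38) and Perp (2.54) were higher in basal-like cells, where Fas was higher by 1.17.

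Epithelial-like cells were not uniform. Over 9 clusters of this class with at least 20 cells in 4 or more libraries, levels in CPM over nuclear genes are given as the lowest, median and highest library, with no test because the cells were clustered on the same data. Mcl1 was highest in the cluster led by Fcgbp, Cck and Sfn (454, 561 and 654) and the Csn2 cluster (426, 478 and 613), and lowest in the cluster led by Cck and Atp6v1b1 (195, 265 and 279) and the Scgb cluster (243, 275 and 334). Bcl2 ran from 19.6, 20.6 and 34.2 in the cycling cluster led by Ube2c to 72.5, 86.4 and 127 in the Fcgbp cluster. Bid had the opposite order at these ends, with 36.9, 39.5 and 40.4 in the cycling cluster and 10.5, 13 and 18.2 in the Fcgbp cluster. The cycling cluster and the Fcgbp cluster did not overlap for any of these genes. Pmaip1 divided the fibroblast-like cells. The cluster led by Cilp and Spon1 held 32, 19, 9, 43 and 36 Pmaip1 UMIs, or 15.3, 15.1, 7.31, 24.0 and 43.9 CPM, and the cluster led by Efemp1 and Clec3b held 1, 0, 0, 1 and 1 UMIs. The Cilp cluster had 162, 81, 94, 102 and 63 cells and the Efemp1 cluster 32, 39, 220, 232 and 166, with the Cilp cluster the larger in both fresh 10x libraries and the smaller in the other 3.

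For each member, the genes with the most similar pattern were sought over the 32 profiles of library and class, by Pearson's r of log2 CPM with the mean of each library removed. The profiles share libraries and depth, and r is given as a description. Mcl1 was most like Kdm6b (0.914), Nfkbiz (0.914) and Ccnl1 (0.906), Bcl2 most like Vps37b (0.937), Prelid2 (0.911) and Klra7 (0.908), and Bcl2l1 most like Hipk2 (0.955), Rreb1 (0.929) and Med17 (0.925). For the effectors, Bax was closest to Mcm3 (0.821), Cenpe (0.821) and Tsc22d3 (0.817), and Bak1 to Alcam (0.848) and Socs6 (0.820). Among the BH3-only genes, Bid lay closest to Eif4b (0.918), Bad to Hacd1 (0.925), Bbc3 to Mbtd1 (0.938), Bcl2l11 to Sin3b (0.897) and Pmaip1 to Pip4k2a (0.888). No member was among the 3 nearest genes of another.

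**Figure D2:**
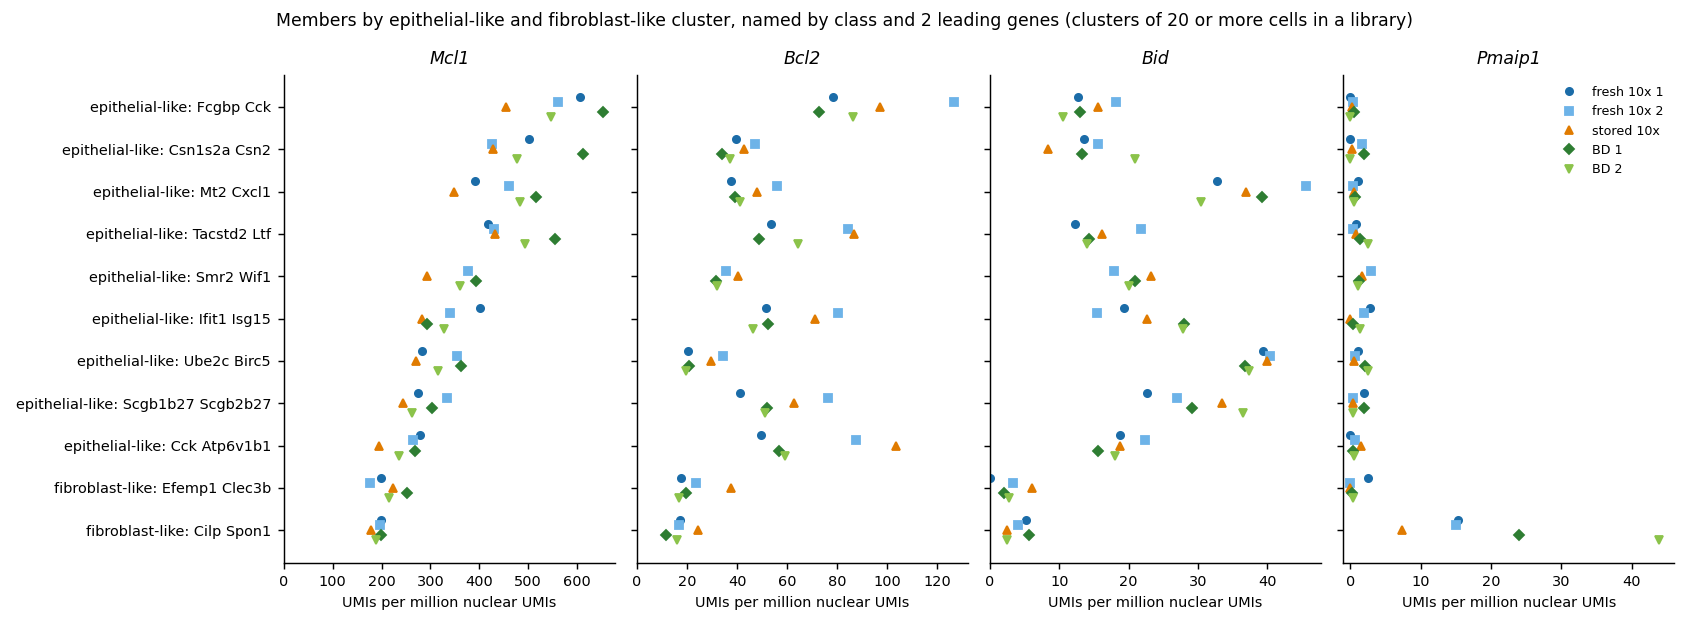
Mcl1, Bcl2, Bid and Pmaip1 (nuclear CPM) in the epithelial-like and fibroblast-like clusters, named by leading genes, 1 point per library. Bcl2 and Bid run in opposite order between the cycling and the Fcgbp cluster, and Pmaip1 separates the fibroblast-like clusters.

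Stored against fresh 10x compares 1 library kept overnight at 4 °C with the fresh pair. Storage cannot be told apart from any other difference of that library. None of the 10 members was called, where 0.228% of 15353 genes were called in whole libraries and 0.28% of 13908 in epithelial-like cells (edgeR). With 1 stored library and a fresh pair, the test has 1 residual degree of freedom before sharing across genes. At an unadjusted p under 0.05, 2612 genes passed in whole libraries, 4 members among them (Bcl2l1, Bax, Bak1 and Pmaip1), and in epithelial-like cells 2250 genes and 3 members (Bcl2l1, Bax and Bak1). DESeq2 called 0 members in both. The median change of the members was 0.06 in whole libraries and 0.00 in epithelial-like cells, beside 0.00 over all genes.

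The values of these members stand outside the fresh pair. In epithelial-like cells Bcl2l1 measured 34.5 CPM stored against 25.4 and 23.7 fresh (0.50 ± 0.12, edgeR adjusted p = 0.16), and it was called only without the count filter (0.51, edgeR adjusted p = 0.0395). Bax measured 121 stored against 172 and 171 fresh (-0.50 ± 0.12, edgeR adjusted p = 0.15). The same direction of Bax appeared in each non-epithelial class except basal-like cells: 123 against 188 and 194 in fibroblast-like, 173 against 264 and 232 in endothelial-like, 178 against 230 and 253 in mural-like, 154 against 199 and 240 in macrophage-like, and for T-like cells 146 against 211 and 154. The fibroblast-like exact Poisson 95% interval was 113 to 135 after storage and 172 to 205 and 175 to 214 in the fresh pair, which covers counting error only. These cells were mostly of the Cilp cluster in fresh 10x (162 of 194 and 81 of 120) and mostly of the Efemp1 cluster after storage (220 of 314). Within the Cilp cluster Bax was 156 nuclear CPM stored against 210 and 232 fresh, and within the Efemp1 cluster 116 against 121 and 137, where the exact Poisson 95% intervals overlapped (103 to 130 stored, 89.5 to 161 and 109 to 170 fresh). Basal-like cells had 115 stored and 106 and 149 fresh. Bcl2l1 in fibroblast-like cells was 16.8 stored (13 to 21.4) against 7.33 (4.41 to 11.4) and 6.75 (3.60 to 11.5) fresh, across the same shift between clusters. Within the Cilp cluster Bcl2l1 was 19.5 nuclear CPM stored (24 UMIs) against 7.64 (16 UMIs) and 9.53 (12 UMIs), and within the Efemp1 cluster 16.7 (41 UMIs) against 7.59 (3 UMIs) and 1.69 (1 UMI).

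Mcl1 measured 308 in the whole stored library against 353 and 358 fresh (-0.14 ± 0.10, edgeR adjusted p = 0.53), and 309 against 359 and 363 in epithelial-like cells (-0.22 ± 0.12, edgeR adjusted p = 0.43). Bcl2 lay between the fresh pair in both, at 57.0 against 45.6 and 60.8 in whole libraries. Pmaip1 measured 1.37 stored, from 73 UMIs, against 2.78 (81 UMIs) and 3.60 (108 UMIs) fresh, a change of -1.16 ± 0.34 (edgeR adjusted p = 0.22). In epithelial-like cells the Pmaip1 change was -0.42 ± 0.56. The macrophage-like cells held 12 and 46 of the Pmaip1 UMIs of the fresh libraries and the fibroblast-like Cilp cluster 32 and 19. The Cilp cluster was 94 cells of 314 fibroblast-like cells in the stored library and 162 of 194 and 81 of 120 in the fresh ones. In whole-library sums alone, fewer cells of a type and a lower level within it cannot be told apart. Within macrophage-like cells and within the Cilp cluster, the stored Pmaip1 levels given above also lay below both fresh levels. They rest on 27 and 9 stored UMIs. How much cell makeup and level within a type each add to the whole-library value was not tested. Stored 10x also had more cells above 20% mitochondrial share, 14.3% against 3.71% and 6.39%. With cells above 20% mitochondrial share or below 500 UMIs left out, the epithelial-like changes were -0.49 for Bax, 0.50 for Bcl2l1 and -0.21 for Mcl1, close to those over all cells.

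BD 1 against fresh 10x compares platforms and cannot be told apart from any other difference between these libraries, since each has its own capture, cell calling and depth. It uses the same fresh 10x pair as the storage comparison. In whole libraries 7 of 10 members were called, 3 higher and 4 lower, against 41.4% of 15859 genes (21.1% higher, 20.3% lower). In epithelial-like cells 6 of 10 were called, 2 higher and 4 lower, against 44.1% of 14309 genes (22.2% higher, 21.9% lower). Both shares lie above the background by less than 3 genes of 10, and both directions occurred among the survival genes and between the effectors.

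Bcl2l1 and Bak1 were higher in BD 1. Bcl2l1 measured 55.4 in BD 1 epithelial-like cells against 25.4 and 23.7 in fresh 10x (1.02 ± 0.12, edgeR adjusted p = 0.00090), and BD 2 had 45.4. Bak1 measured 64.9 against 28.7 and 31.1 (0.97 ± 0.11, edgeR adjusted p = 0.00087), and BD 2 had 55.4. Both were higher in BD 1 than in either fresh 10x library in basal-like, fibroblast-like, endothelial-like, macrophage-like and T-like cells too. Bak1 in macrophage-like cells, for instance, was 126 against 38.6 and 35.6.

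Bax, Bbc3, Bcl2 and Bad were lower in BD 1. Bax measured 123 against 172 and 171 in epithelial-like cells (-0.64 ± 0.11, edgeR adjusted p = 0.0048), with 105 in BD 2. Bbc3 measured 11.8 against 21.5 and 30.9 (-1.30 ± 0.22, edgeR adjusted p = 0.0037), with 10.7 in BD 2. Bcl2 measured 35.1 against 40.4 and 61.7 (-0.69 ± 0.23, edgeR adjusted p = 0.046), and the fresh pair differed from each other more than BD 1 differed from fresh 10x 1. Against fresh 10x 1 alone the Bcl2 value was -0.20 and the Bbc3 value -0.86, with no test. Bad measured 58.5 against 69.2 and 66.0 (-0.36 ± 0.11, edgeR adjusted p = 0.041), was not called by DESeq2 (-0.38, adjusted p = 0.133), and was -0.17 against fresh 10x 2 alone. In whole libraries Bcl2 (-0.71 ± 0.19, edgeR adjusted p = 0.042) was not called without the count filter (0.0919) or among cells with at least 2577 UMIs (0.0636).

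Mcl1, Bcl2l11 and Bid did not pass the test between platforms, with changes of -0.11, -0.06 and -0.27 in epithelial-like cells. Pmaip1 was higher in the whole BD 1 library (1.25 ± 0.25, edgeR adjusted p = 0.018), at 8.34 against 2.78 and 3.60, but in epithelial-like cells it was 1.16 against 0.827 and 0.731 (0.42 ± 0.49, edgeR adjusted p = 0.52). In macrophage-like cells it was 120 against 33.1 and 52.9, and these cells were 6.21% of BD 1 and 2.49% and 5.76% of fresh 10x.

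Of the other apoptosis genes, 24 of 63 were called in whole libraries (11 higher, 13 lower) and 27 of 61 in epithelial-like cells (13 and 14), near the 41.4% and 44.1% of all genes. The counts of the next lists also lie near that share and are given as a description. All 4 called of the 8 genes of the apoptosome and of mitochondrial death factors were lower in BD 1 epithelial-like cells: Endog (-2.07), Cycs, the gene of cytochrome c (-1.40), Diablo (-1.02) and Vdac2 (-0.74). Of the 12 caspases and caspase substrates, 5 were called and higher there, with Dffa (0.73), Casp8 (0.47) and Casp12 (0.40) among them. Bmf, a BH3-only gene, was higher by 1.00 and Bok was lower by -2.28.

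**Figure D3:**
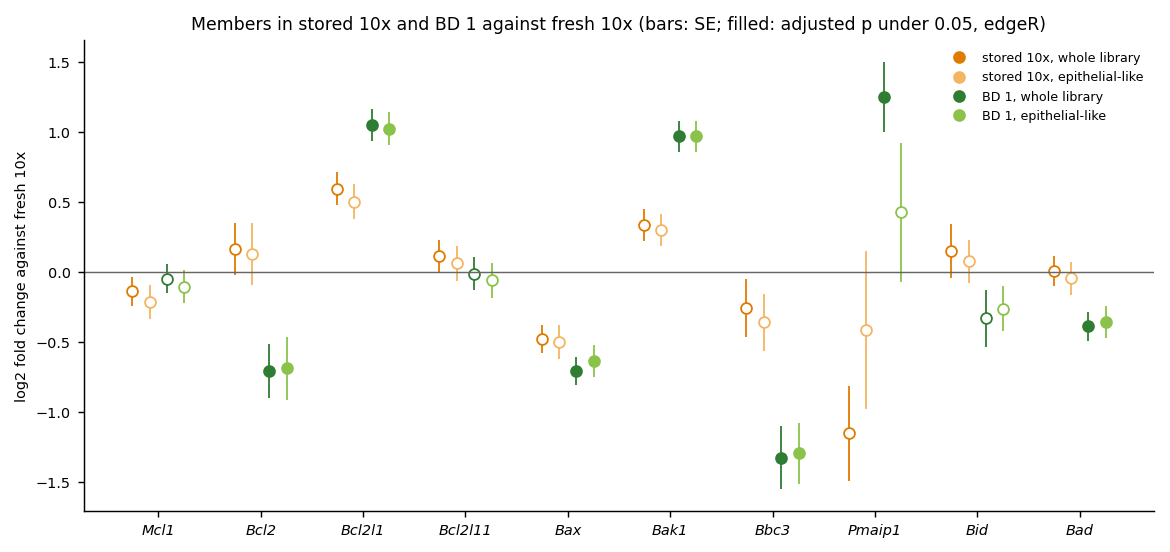
Log2 fold change of each member (± standard error) in stored 10x and in BD 1 against fresh 10x, in whole libraries and epithelial-like cells, with filled points for an adjusted p under 0.05. No stored value is called, and Bcl2l1 and Bak1 lie about 1 above fresh 10x in BD 1.

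Cells with a high mitochondrial share are often read as damaged. The members were compared between the epithelial-like cells in the highest and lowest tercile of mitochondrial share of each library. Mitochondrial genes were left out of the counts. An unnamed cluster of 1118 cells with a median mitochondrial share of 55.4%, described at the end, was not classed as epithelial-like. Its cells are in neither the terciles nor the ranges of share below, so these do not cover all cells with a high share. Only Mcl1 was called of 9 members tested, against 20.1% of 11995 genes, while Pmaip1 failed the filter on low counts. The lowest tercile had a median share of 4.85%, 5.39%, 5.08%, 11.1% and 13.4%, and the highest 8.93%, 11.5%, 12.6%, 24.6% and 30.6%, so the highest tercile of 10x lay near the lowest of BD.

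Mcl1 measured 326, 366, 303, 384 and 296 nuclear CPM in the highest tercile and 473, 440, 381, 475 and 410 in the lowest. It was lower in 5 of 5 libraries, and the change was -0.41 ± 0.08 (edgeR adjusted p = 0.0039). With each cell thinned to 2000 nuclear UMIs it was -0.41 (adjusted p = 0.0079), and with terciles set within each cluster -0.31 (0.024). The call was lost without the block (-0.42, adjusted p = 0.31) and with a cut at 20% in every library (-0.26, 0.35). Across ranges of share Mcl1 did not fall steadily: in 10x it was 480, 454 and 422 below 5%, 371, 386 and 325 from 5 to 10%, 294, 390 and 298 from 10 to 20%, and 380, 440 and 371 from 20 to 40%. The last range rests on 24 and 52 cells in the fresh libraries, with exact Poisson 95% intervals of 248 to 556 and 355 to 540. In BD 1 it was 486, 448, 385 and 430 in the ranges from 5% upward, and in BD 2 392, 400, 337 and 286.

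Several measures moved with the terciles. The Fcgbp cluster, high in Mcl1, made up 15.8%, 21.5%, 13.6%, 15.4% and 14.1% of the lowest tercile and 7.29%, 5.54%, 6.64%, 4.20% and 4.31% of the highest. Fosb, Atf3 and Klf6, immediate early and stress genes, are among the 10 leading genes of that cluster. The cluster led by Cck and Atp6v1b1, low in Mcl1, was 18.4%, 12.2%, 13.9%, 6.18% and 5.34% of the lowest tercile. In the highest it was 24.5%, 16.6%, 20.7%, 28.1% and 27.6%. The Csn2 cluster, high in Mcl1, was larger in the highest tercile of every library too. The Scgb cluster, low in Mcl1, was larger there in every library but BD 2. The median depth fell from 19949 to 10142 UMIs in BD 1, from 16342 to 6845 in BD 2, from 12805 to 7714 in stored 10x and from 12647 to 10702 in fresh 10x 2, and in fresh 10x 1 it was 11010 and 11214. Immediate early and heat shock genes induced by tissue digestion summed to 16747, 16715, 14047, 12746 and 11526 CPM in the lowest tercile and 11596, 14094, 11260, 11871 and 11910 in the highest, lower in 4 of 5 libraries. Of that list of 10, Atf3 (-0.53) and Egr1 (-0.37) fell and Hspa1a (0.35) and Hspa1b (0.34) rose. Summed macrophage markers were 9.70 to 18.2 in the lowest tercile and 6.69 to 24.9 in the highest. The part of depth and of digestion genes in the Mcl1 value was not tested beyond thinning, and the within-cluster value above holds the cluster makeup fixed.

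Bcl2 went the other way without passing the test. It measured 41.7, 79.5, 77.8, 45.5 and 51.2 in the highest tercile and 48.8, 58.3, 53.4, 38.6 and 39.7 in the lowest, higher in 4 of 5 libraries (0.25 ± 0.10, edgeR adjusted p = 0.0997). Fresh 10x 1 was the exception, and without it Bcl2 was called (0.35, edgeR adjusted p = 0.012), as were Bak1 (-0.28, 0.042) and Bid (-0.33, 0.040). Bak1 was 29.6, 30.7, 40.9, 61.8 and 59.4 in the highest tercile and 29.4, 33.7, 40.8, 86.3 and 73.7 in the lowest (-0.23 ± 0.09, edgeR adjusted p = 0.077). Its tercile change did not pass the test of a difference between platforms (-0.24, edgeR adjusted p = 0.37). Changes of the other tested members ran from -0.22 (Bid) to 0.04 (Bad). Of 59 other apoptosis genes, 12 were called, 5 higher and 7 lower, near the 20.1% of all genes called. Among them Birc5 (-1.20), a survival gene of dividing cells, Cycs (-0.50), Vdac1 (-0.37) and Vdac2 (-0.35) fell, and Birc2 (0.40), Cflar (0.34), Casp12 (0.38) and Casp1 (0.32) rose. The cycling cluster was 12.9% to 24.7% of the lowest tercile and 6.5% to 10.6% of the highest.

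**Figure D4:**
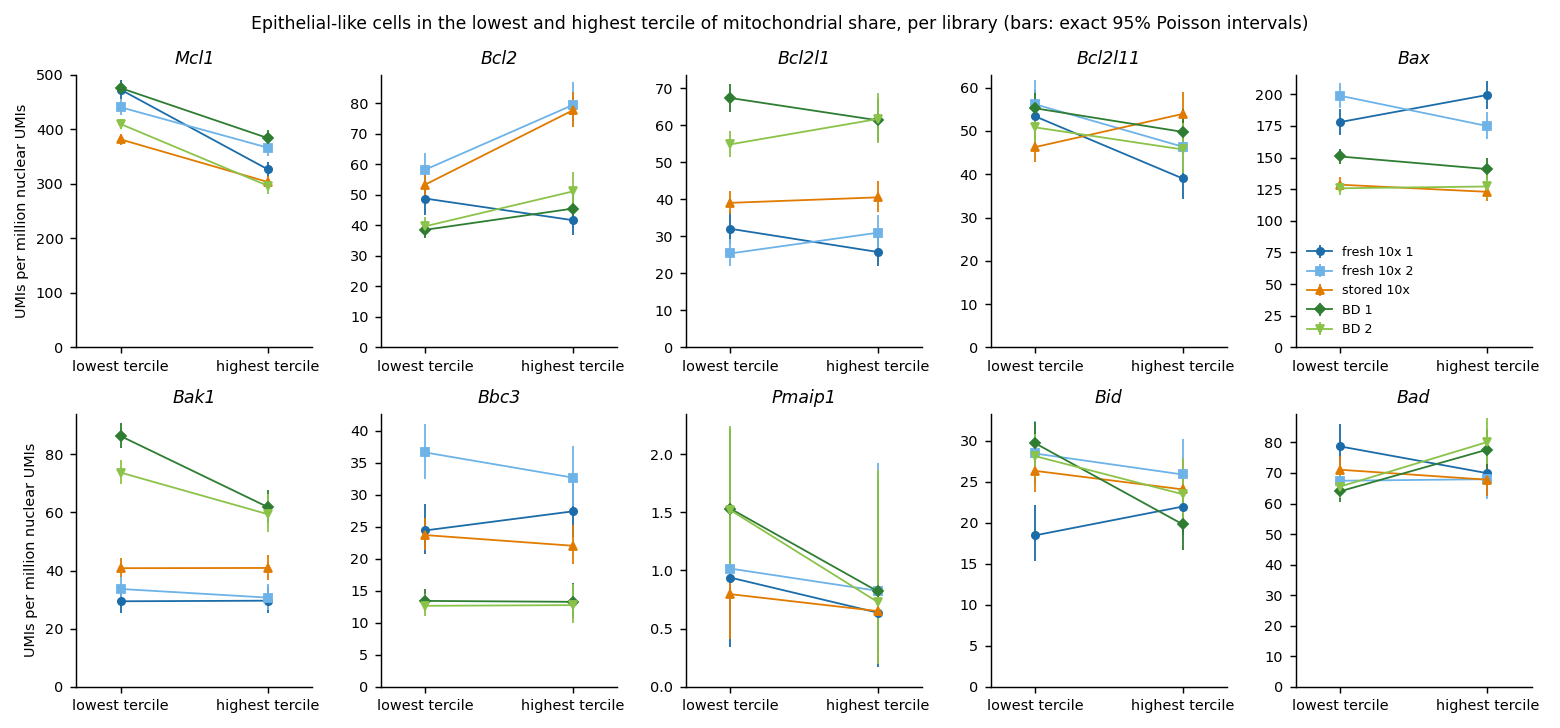
Members in epithelial-like cells of the highest against the lowest tercile of mitochondrial share (nuclear CPM, linear axes that differ between genes), with a line joining the terciles of a library and exact Poisson 95% intervals as bars. All 5 lines of Mcl1 fall, and 4 of 5 lines of Bcl2 rise.

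**Figure D5:**
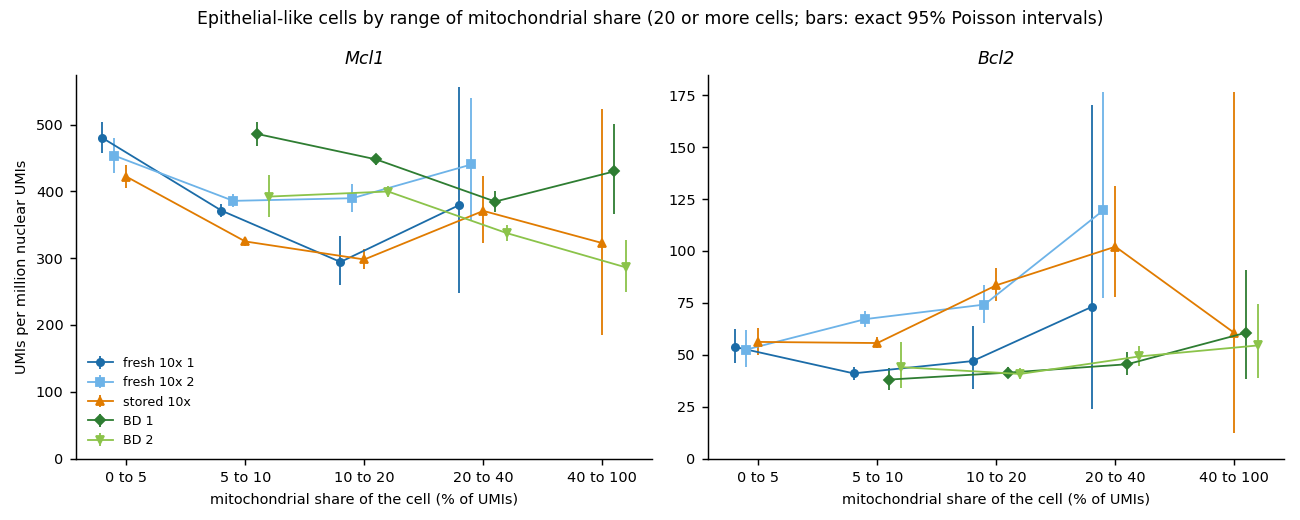
Mcl1 and Bcl2 (nuclear CPM) in epithelial-like cells by range of mitochondrial share, 1 line per library, with exact Poisson 95% intervals as bars. In 10x libraries Mcl1 is highest below 5% in fresh and stored libraries, while Bcl2 of fresh 10x 2 and stored 10x peaks from 20 to 40%, at 120 and 102.

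Whether the tercile difference itself differed between platforms was tested as an interaction, in which 5.94% of 12798 genes were called and 1 member, Bad. Bad was 77.7 and 80.1 in the highest tercile of BD 1 and BD 2 against 64.0 and 65.5 in the lowest, and 69.9, 68.0 and 67.8 against 78.7, 67.5 and 71.1 in 10x. The difference of the changes (BD minus 10x) was 0.48 ± 0.14 (edgeR adjusted p = 0.041), and it was lost without the count filter (0.12) and without fresh 10x 1 (0.0511), stored 10x (0.121), BD 1 (0.305) or BD 2 (0.299). For Mcl1 the interaction did not pass the test.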

How the data were processed

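UMI counts per gene and cell, deposited by the authors as 5 matrices, were used as counts. Per the submitters' processing notes the tools include Cell Ranger 3.0.1 and the build mm10, with no role given, and per the labels' protocols libraries were 10x Genomics 3' v2 or BD Rhapsody WTA. The members and lists were chosen with earlier results of these data known. Rows with the same name were summed. Cells with at least 200 genes were kept for clustering and class sums, while whole-library sums used all deposited cells, called doublets among them. Scrublet (expected rate 0.06) marked 21, 7, 2, 0 and 1 doublets, under 0.5% of the cells in 4 of 5 libraries, so it hardly worked and doublets remain. Cells were clustered with scanpy 1.11.5 (2000 variable genes without the members, the apoptosis lists and mitochondrial genes, 115 genes in all, 30 principal components, 15 neighbours, Leiden resolution 1.0), and clusters were named from at least 3 detected markers. Names rebuilt this way may differ from those of the study.

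Counts were summed per library, per library and class (at least 20 cells) or per library and tercile of mitochondrial share. Sums were tested with edgeR 4.0.16 in R 4.3.3 (TMM, filterByExpr with a minimum count of 10 and total of 15, quasi-likelihood F test, Benjamini-Hochberg over all genes tested). The scripts were tested on simulated data with 200 genes changed. For stored against fresh 10x, 55% of 2-fold changes were recovered in whole libraries and 62% in epithelial-like cells. For BD 1 against fresh 10x these were 49% and 64.5%. Smaller changes were not simulated. Library was a block in the class and tercile fits because the compared cells come from the same library. Intervals are exact 95% Poisson intervals and cover counting error only. The standard error is the log2 fold change divided by the root of F. Of the other apoptosis genes, at most 4 per list and comparison are named, those with the smallest adjusted p among those called. Alternatives were DESeq2 1.42.0, other filters, cells, cuts and clusters, and leaving out each library. A few genes are not reported here. Neutrophil-like and dendritic-like cells were too few to be tested.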

Additional observations from a re-analysis of the deposited data

Results flagged for a closer look

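The change of Bad between the highest and lowest tercile of mitochondrial share differed between the BD and the 10x libraries by a test of the difference itself: 0.48 ± 0.14 (edgeR adjusted p = 0.041, BD minus 10x), with Bad higher in the highest tercile in 2 of 2 BD libraries and in 1 of 3 10x libraries. Among 12798 genes 5.94% passed this test, and the BD terciles lie at higher mitochondrial shares than those of 10x, so platform and share cannot be told apart. The call was lost in 5 of 6 alternatives: without the count filter (adjusted p = 0.12) and without fresh 10x 1, stored 10x, BD 1 or BD 2 (0.0511 to 0.305).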

How the results depend on the processing

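Over all alternatives, 1056 values were alike, 58 lost a call, 18 gained one and 51 moved. For tested values, alike means the same side of the threshold, and uncalled ones that changed sign stayed within the standard error of the main value. Values against a single fresh library have no test, and for these alike means within that standard error. Moved values were untested, or uncalled with a change of sign, and lay further off. Besides these, 1 called value reversed, the T-like change of Mcl1 (0.013 at Leiden resolution 2.0). For stored against fresh 10x, 1 member was called in epithelial-like cells without the count filter. For the terciles of mitochondrial share, leaving out each library gave 1 to 4 called members (4 without fresh 10x 1), the fit with no replicate block 0, the cut at 20% 0 and all cells in place of epithelial-like cells 4. For the interaction with platform, the count was 0 without the filter and 0 to 1 when each library was left out. For the classes, 34 calls became 29 to 33 when each library was left out, 24 with no replicate block, 32 with DESeq2 and 32 with finer clusters. Counts over all genes moved more: stored against fresh 10x gave 35 calls in whole libraries, 410 with DESeq2, 2 without the filter and 3 with cells of at least 2577 UMIs, and in epithelial-like cells 39, 186 with DESeq2, 681 without the filter and 173 with cells of at least 500 UMIs and at most 20% mitochondrial share. BD 1 against fresh 10x in epithelial-like cells gave 6313 and, with DESeq2, 4206. Basal-like cells gave 3768 (1651 with no block) and T-like cells 6566 (4226 with finer clusters). The terciles gave 2408, 73 with no block, 954 thinned, 5577 with all cells, 1434 at the 20% cut, 1188 within clusters, 1370 without fresh 10x 2 and 1558 without BD 1, and the interaction 760, 1198 without the filter, and 318, 166 and 119 without stored 10x, BD 1 and BD 2. With DESeq2 the basal-like calls were 2066 higher and 1590 lower in place of 1643 and 2125, and the mural-like calls 2766 and 2070 in place of 2001 and 3002. The TMM medians of all genes in the classes (-0.08 to -0.30) lay between -0.01 and 0.07 with DESeq2. The cause of these moves was not tested. The terciles within clusters and the classes without cells rich in epithelial or immunoglobulin transcripts were chosen after seeing the data. Stored or BD 1 against a single fresh library is a value with no test. No paired analysis was possible for stored 10x or BD 1 against fresh 10x because the compared groups share fewer than 2 replicate numbers.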

Other observations

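Neutrophil-like cells, 41 in all and too few for a test, had the highest Mcl1 of the classes named above in every library. The lowest library had 1607 CPM (exact Poisson 95% interval 1284 to 1988, 85 UMIs), the median one 2264 (1775 to 2847, 73 UMIs) and the highest 5457 (3054 to 9000, 15 UMIs). MCL1 is known as the survival protein that neutrophils depend on. These cells numbered 5, 2, 12, 12 and 10.

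An unnamed cluster of 1118 cells led by Gm26917, Lars2 and Gm42418 had a median mitochondrial share of 32.4%, 29.4%, 40.1%, 65.4% and 64.5%. Its Bcl2 level in nuclear CPM was 232 (15 UMIs), 329 (28 UMIs), 162 (72 UMIs), 71.7 (35 UMIs) and 104 (63 UMIs), and its Mcl1 level 495, 635, 313, 211 and 303. These cells were 46, 58, 323, 276 and 415 of their libraries. They entered no class comparison and, but for the alternative with all cells, no tercile or range of mitochondrial share.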
